A study of Mus musculus with 40 samples.

Results

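The 10 genes described here are Parp1, Parp2, Sirt1, Sirt2, Sirt3, Nampt, Nmnat1, Nmnat2, Cd38 and Sarm1, which spend, make or break down nicotinamide adenine dinucleotide (NAD). They were chosen by symbol, not by their values, because loss of NAD has been linked to deficiency of the CSB protein. All 10 were found among the 54331 gene IDs of the deposited table, and all 10 passed the filter on low values. The study sequenced cerebellar RNA of male C57BL6 mice, depleted of ribosomal RNA, in 40 DNBseq libraries. Mice of 4 genotypes received a ketogenic diet (KD) or a standard diet (SD). DKO had 5 libraries on KD and 4 on SD, CSB had 5 and 6, INDY had 6 and 6, and WT had 4 and 4. INDY is another name of Slc13a5, a plasma membrane citrate transporter, and CSB is the product of Ercc6, a chromatin remodeller of transcription-coupled DNA repair. The labels do not give the alleles, the ages, the composition or length of the diets, or what DKO combines. DKO libraries lacked Slc13a5 RNA as INDY libraries did and had the Ercc6 decrease of CSB libraries. Whether each library is a separate animal is not in the labels, so p-values measure the spread between libraries, which may be technical. Libraries are named by group and by the number in the label, as in DKO SD 1.

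NAD carries electrons in metabolism and is also a substrate that some enzymes break to nicotinamide. Poly(ADP-ribose) polymerases use it to mark damaged DNA, sirtuins use it to remove acyl groups from proteins, and CD38 and SARM1 cleave it outright. Nicotinamide is returned to NAD through NAMPT and then the NMNAT enzymes, the salvage route on which neurons largely rely.

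Sirt1 and Sirt3 had an inverse relation across libraries. Cd38 had the highest ratio of highest to lowest library of the members, which rested on DKO SD 1. The start regions of Sirt1, Sirt3 and Cd38 are shown for these reasons. Each is the RefSeq window on GRCm38.p6 from 250 bases before to 50 bases after the annotated start, read 5′ to 3′ on the gene's strand, with the bases from the start onward in capitals. The windows lie at chr10:63338986-63339285 on the minus strand, chr7:140882260-140882559 on the minus strand and chr5:43868559-43868858 on the plus strand.
Sirt1: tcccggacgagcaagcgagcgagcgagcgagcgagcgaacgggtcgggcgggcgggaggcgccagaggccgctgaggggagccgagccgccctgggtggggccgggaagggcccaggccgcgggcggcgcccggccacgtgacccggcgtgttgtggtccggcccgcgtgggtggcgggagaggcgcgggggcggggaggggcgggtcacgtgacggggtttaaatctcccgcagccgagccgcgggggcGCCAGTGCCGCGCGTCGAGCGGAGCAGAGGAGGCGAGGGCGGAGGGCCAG
Sirt3: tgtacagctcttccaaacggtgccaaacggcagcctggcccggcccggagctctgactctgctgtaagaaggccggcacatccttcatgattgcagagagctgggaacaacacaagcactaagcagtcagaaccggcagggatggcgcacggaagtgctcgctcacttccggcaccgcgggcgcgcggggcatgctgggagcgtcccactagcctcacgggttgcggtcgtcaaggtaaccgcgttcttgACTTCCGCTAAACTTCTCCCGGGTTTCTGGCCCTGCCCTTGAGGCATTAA
Cd38: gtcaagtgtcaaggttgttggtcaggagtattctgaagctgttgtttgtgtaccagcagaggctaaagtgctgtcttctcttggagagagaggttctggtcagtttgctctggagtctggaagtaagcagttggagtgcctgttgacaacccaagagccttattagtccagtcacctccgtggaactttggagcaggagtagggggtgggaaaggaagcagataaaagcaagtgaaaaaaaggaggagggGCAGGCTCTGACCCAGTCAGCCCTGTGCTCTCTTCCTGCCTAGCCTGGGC
The Sirt1 window held 47 CG dinucleotides and was 79.0% G or C. The Sirt3 window shown held 23 CG dinucleotides. Sirt3 had a second window, not shown, at chr7:140881820-140882119 on the minus strand, with 24 CG. The Cd38 window held 1 CG and was 51.7% G or C. Over 32851 mouse windows of the same length the median was 7 CG, with an interquartile range of 3 to 20, so the Sirt1 and Sirt3 windows lay above that range and the Cd38 window below it. All 10 members matched, with 12 windows in all, 2 each for Sirt3 and Nmnat1. Those of the other 7 members held 15 to 36 CG. The E-box CACGTG, searched on both strands, occurred 2 times in the Sirt1 window and 1 time each in those of Parp1 and Parp2, against 7.15% of all windows with a match. The TATA box TATAAA, found in 13.6% of all windows, and the cAMP response element TGACGTCA, found in 1.79%, were absent from the 12 windows. These are letter matches and do not show binding.

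Values are read counts estimated per gene and normalised by the authors, and log2 values are log2(value + 1). Differences were tested with limma over 21367 genes in 1 fit of the 8 groups, and a gene was called at a Benjamini-Hochberg adjusted p under 0.05. Slc13a5 had values of 0 to 0.934 in the 21 INDY and DKO libraries, against 82.1 to 161 in the 19 WT and CSB libraries. Ercc6 was lower in the CSB and DKO libraries than in the WT and INDY libraries by -0.55 on the log2 scale (SE 0.07, limma adjusted p = 3.27e-06), and the ranges overlapped at 383 to 876 against 633 to 1070. The library labelled WT KD 25 went against its label: its Gm6768 value was 1041, where the other 19 WT and INDY libraries stood at 0 and the 20 CSB and DKO libraries at 929 to 1245. It also had the lowest Ercc6 value of the WT and INDY libraries, 633. Without it their Ercc6 range was 718 to 1070, which still overlapped that of the CSB and DKO libraries. Markers of Purkinje cells (8 of 8 tested) and granule cells (10 of 10), the defining neurons of the cerebellum, were above 0 in every library. Genes of the forebrain (16 of 16 tested, with Emx1 at 0 in some libraries) had a mean log2 level of 5.75 to 10.5. In 12 libraries that level exceeded 7.20, a limit set from these values at 1 log2 unit above the highest WT SD library. By that rule no WT SD library could exceed it, and none of the 12 was CSB SD. By group the forebrain level was 6.04 to 8.06 in DKO KD, 5.75 to 7.65 in CSB KD, 5.85 to 8.67 in INDY KD, 5.89 to 8.31 in WT KD, 6.12 to 10.5 in DKO SD, 5.98 to 6.56 in CSB SD, 6.10 to 8.07 in INDY SD and 5.95 to 6.20 in WT SD. The library DKO SD 1 stood farthest apart, with the highest forebrain level of 10.5, the lowest granule cell level of 7.88 and the lowest Purkinje cell level of 9.61. The next lowest library had 10.7 for granule cells and 11.6 for Purkinje cells.

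Per kb of exonic length, the members fell into 3 tiers. That length joins all annotated exons of a gene and can exceed the expressed transcript, so genes are compared only roughly. Nmnat2, the NMNAT enzyme of the Golgi and axon, was the highest, with 1000 ± 64.0 per kb (SD, n = 40). Nampt, which makes nicotinamide mononucleotide, followed with 366 ± 31.8, Sirt2, a largely cytosolic deacetylase, with 320 ± 39.9, and Parp1, the main polymerase activated by DNA breaks, with 279 ± 30.3 per kb. The other 6 were Sirt1, a nuclear deacetylase, with 128 ± 19.5, Sirt3, the main mitochondrial deacetylase, with 125 ± 19.6, Cd38, a membrane NAD glycohydrolase, with 116 ± 24.0, Parp2, a second polymerase of DNA repair, with 94.0 ± 17.2, Sarm1, the axonal NAD hydrolase, with 78.3 ± 9.02, and Nmnat1, the nuclear NMNAT enzyme, with 61.2 ± 6.23 per kb. The step from Nampt to Nmnat2 and that from Sirt1 to Parp1 held in all 40 libraries, and the ranges of those neighbours did not overlap. The ranges of every other pair of neighbours overlapped, although Sarm1 exceeded Nmnat1 in 38 of 40 libraries. Sirt1 exceeded Sirt3 in 21 of 40 libraries, so these neighbours had no clear order. The per-kb ratio of Nmnat2 to Nmnat1 was 12.7 to 21.9 with a median of 16.3.

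**Figure D1:**
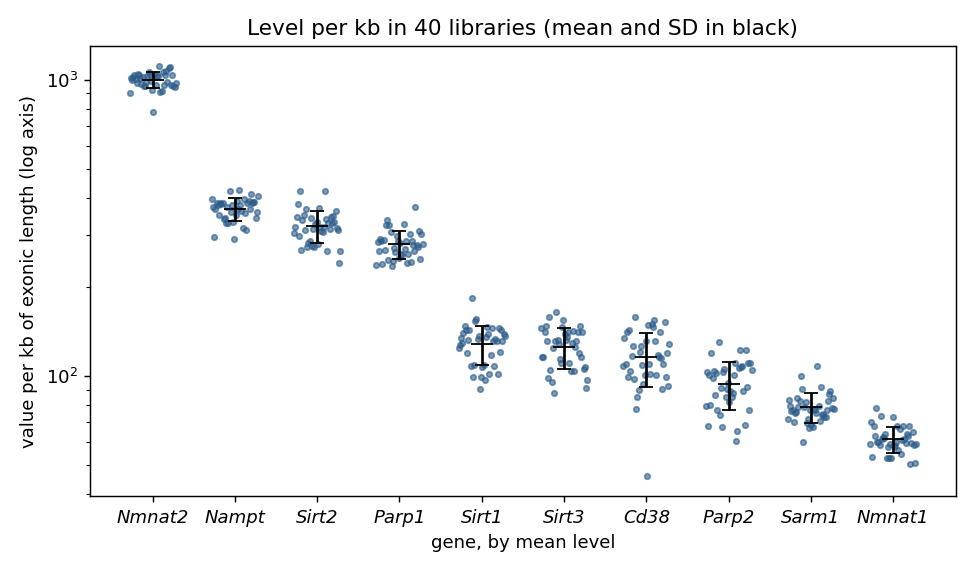
Level of each gene in value per kb of exonic length (log axis) in the 40 libraries, with mean and SD in black. Nmnat2 at 1000 per kb stands apart from Nampt, Sirt2 and Parp1 at 366 to 279, and the other 6 lie between 128 and 61.2, with 1 low Cd38 library at 46.1 (DKO SD 1).

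The members differed in how much they varied. The ratio of the highest to the lowest library was 1.43 for Nmnat2, 1.46 for Nampt, 1.55 for Nmnat1, 1.59 for Parp1, 1.76 for Sirt2, 1.81 for Sarm1, 1.88 for Sirt3, 2.02 for Sirt1, 2.15 for Parp2 and 3.44 for Cd38. Between the highest and the lowest of the 8 group means, the log2 range was smallest for Parp1 at 0.12 and largest for Cd38 at 0.50 and Sirt3 at 0.45. The median of that range over all tested genes was 0.48, so Parp1 lay at the 1.89th percentile and Cd38 at the 51.5th. The ratio and range of Cd38 rest on its lowest library, DKO SD 1 at 179. The next lowest was INDY KD 20 at 301, and the highest was INDY KD 15 at 616. Without DKO SD 1 Cd38 would have neither the highest ratio nor the largest range. By level, Parp1 lay at the 83.9th percentile of tested genes and Cd38 at the 61.6th. Ranges were not compared among genes of like level.

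**Figure D2:**
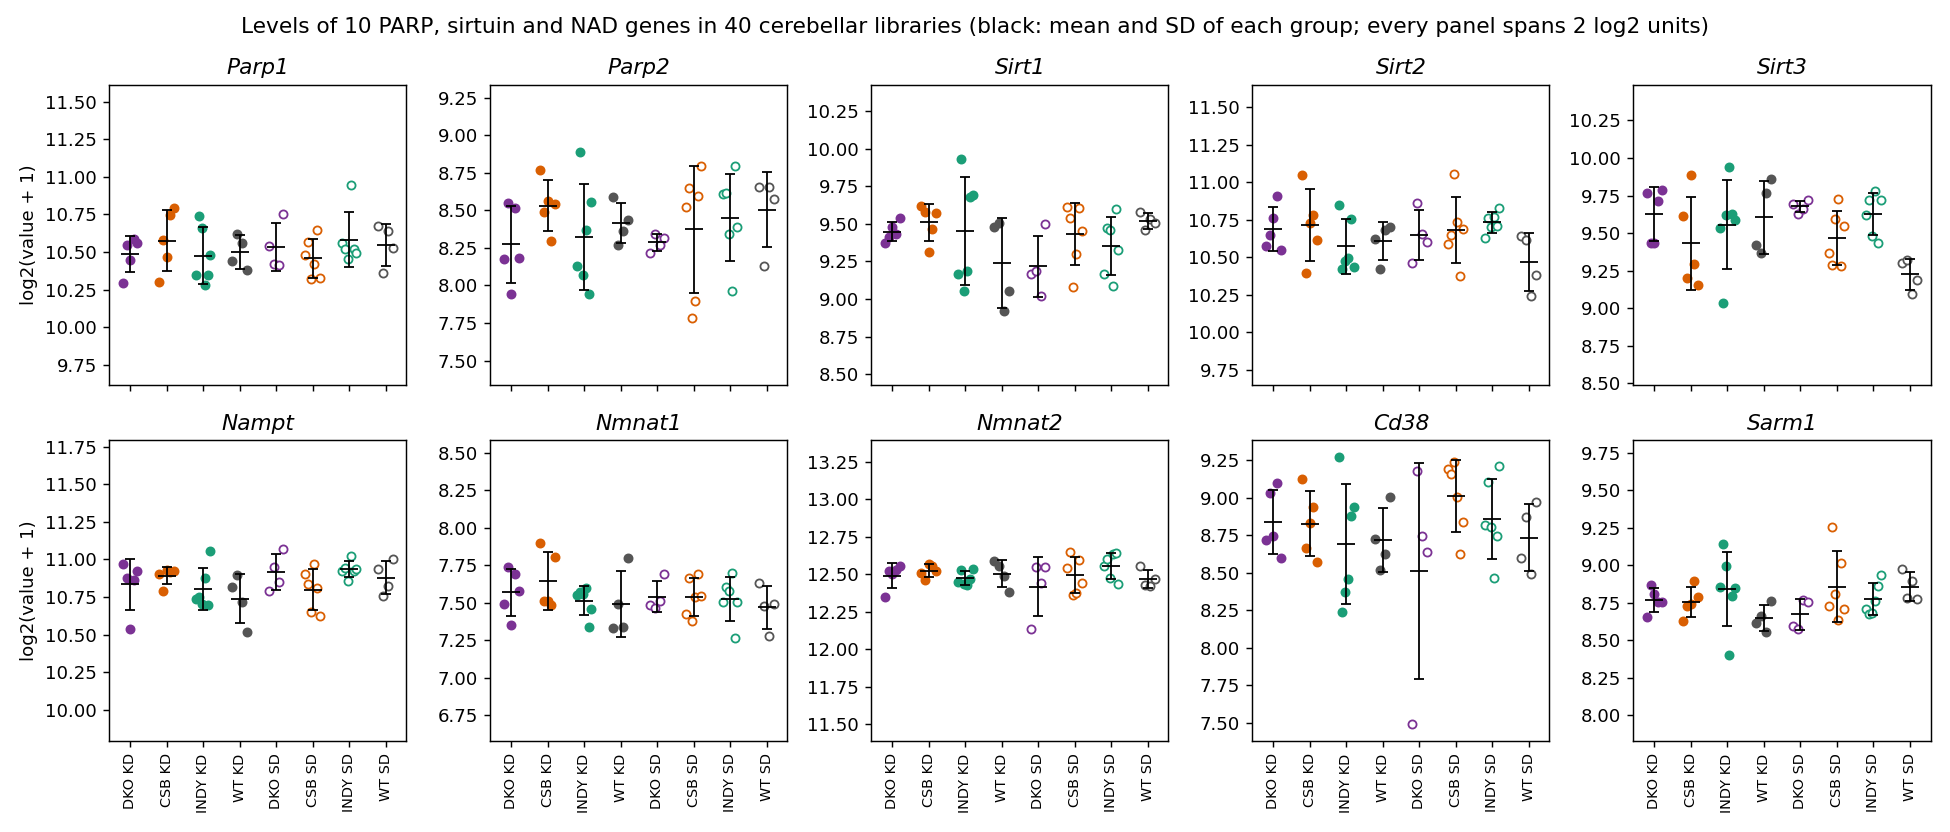
Log2(value + 1) of each gene in the 40 libraries by group, with 1 point per library and the group mean. The group means span 0.12 for Parp1 and 0.45 for Sirt3, whose mean is lowest in WT SD, and 1 DKO SD library is low for Cd38.

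The CSB genotype was not accompanied by a called change in any of the 10 genes. Averaged over diet and INDY genotype, 0 of 10 members were called in CSB and DKO against WT and INDY libraries (20 against 20), where 0.796% of all tested genes were called, 121 higher and 49 lower. That count of 170 genes became 276 when INDY SD 33 was dropped, 959 when DKO KD 23 was dropped and 1379 when INDY KD 22 was dropped. At an unadjusted p under 0.05 the count was also 0 of 10, against 18.8% of all genes. The member with the greatest difference was Sirt2, higher by 0.09 (SE 0.06, limma adjusted p = 0.419). The 95% intervals of the 10 members lay between -0.24 and 0.26 on the log2 scale. Parp1 had -0.01 (SE 0.05), Parp2 -0.06 (SE 0.09), Sirt1 0.01 (SE 0.07) and Cd38 0.05 (SE 0.10). Of the salvage enzymes, Nampt had 0.02 (SE 0.04), Nmnat1 0.07 (SE 0.05) and Nmnat2 -0.02 (SE 0.03). Parp2 lies on chromosome 14, as Ercc6 does, 18.2 Mb away. Of the wider pathway described below, Parg, Parp4 and Pnp also lie on chromosome 14, and Parg is nearer to Ercc6 than Parp2. Whether DNA around Ercc6 had a part in any difference was not tested. Without WT KD 25, without DKO SD 1, and without the 12 libraries of high forebrain level, 0 of 10 members were again called in this comparison.

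The INDY genotype likewise gave no call among the members. Averaged over diet and CSB genotype, 0 of 10 were called in INDY and DKO against WT and CSB libraries (21 against 19), where 0.014% of all genes were called, and 1 of 10 had an unadjusted p under 0.05, against 9.38% of all genes. That member was Sirt3, higher by 0.19 (SE 0.07, unadjusted p = 0.0072, limma adjusted p = 0.511). The intervals of the 10 members lay between -0.31 and 0.33. Without the 12 libraries of high forebrain level the Sirt3 difference was 0.10 (SE 0.08, limma adjusted p = 0.889).

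The ketogenic diet averaged over the 4 genotypes gave 0 of 10 members called in KD against SD libraries (20 against 20), where 0% of all genes were called. At an unadjusted p under 0.05 there were 0 of 10 members and 676 of all genes, or 3.16%. Nampt had the greatest difference among the members, -0.07 (SE 0.04, limma adjusted p = 1.00). With libraries rescaled to equal sums it was -0.11 (SE 0.04, unadjusted p = 0.0132, limma adjusted p = 0.95), and without the 12 libraries of high forebrain level it was -0.14 (SE 0.06, unadjusted p = 0.0269, limma adjusted p = 0.67). The intervals lay between -0.22 and 0.20.

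**Figure D3:**
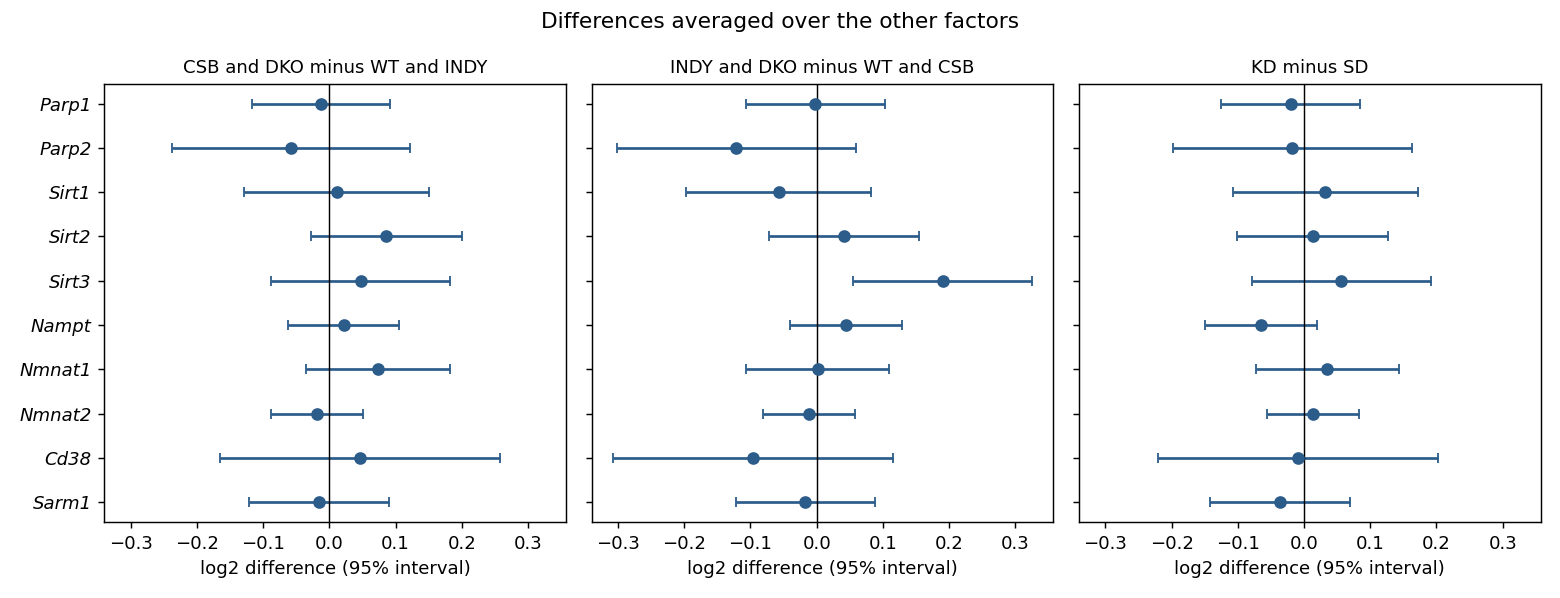
Log2 difference of each gene with its 95% interval for CSB and DKO minus WT and INDY, INDY and DKO minus WT and CSB, and KD minus SD, each averaged over the other factors. The interval of Sirt3 in the middle panel, 0.05 to 0.33, is the one that does not cover 0.

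Across all 20 comparisons, including single groups and interactions, 0 of 200 tests of members were called, and 7 of 200, or 3.5%, had an unadjusted p under 0.05, against 9.75% of the tests of all genes. The share of all genes called was highest, 5.92%, in DKO SD against WT SD, with 662 higher and 603 lower. That count of 1265 genes turned on single libraries. It was 12, 23, 65 and 400 without WT SD 41, 39, 42 and 40, 44 without DKO SD 35, 101 without DKO SD 1, 2669 without INDY KD 20 and 2514 without INDY KD 22. It was 10 with the forebrain level as a covariate and 5 with the length balance, a measure of long against short genes described with Sirt3. It was 0.136% in CSB SD against WT SD, 0.0983% in DKO KD against INDY KD, 0.0608% in DKO SD against INDY SD and 0.0281% in DKO KD against CSB KD. In INDY KD against WT KD and in DKO KD against WT KD it was 0.00936%. It was 0.00468% in CSB KD against WT KD, INDY SD against WT SD, DKO SD against CSB SD and DKO KD against DKO SD, and 0% in the diet comparisons of the other genotypes and in the 3 interactions. The counts against WT KD also turned on WT KD 25, the library that went against its label. Without it they were 10 instead of 1 genes for CSB KD, 24 instead of 2 for DKO KD and 4 instead of 2 for INDY KD. Members called were 0 in each. Comparisons with the same control group share its libraries and are not independent.

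**Figure D4:**
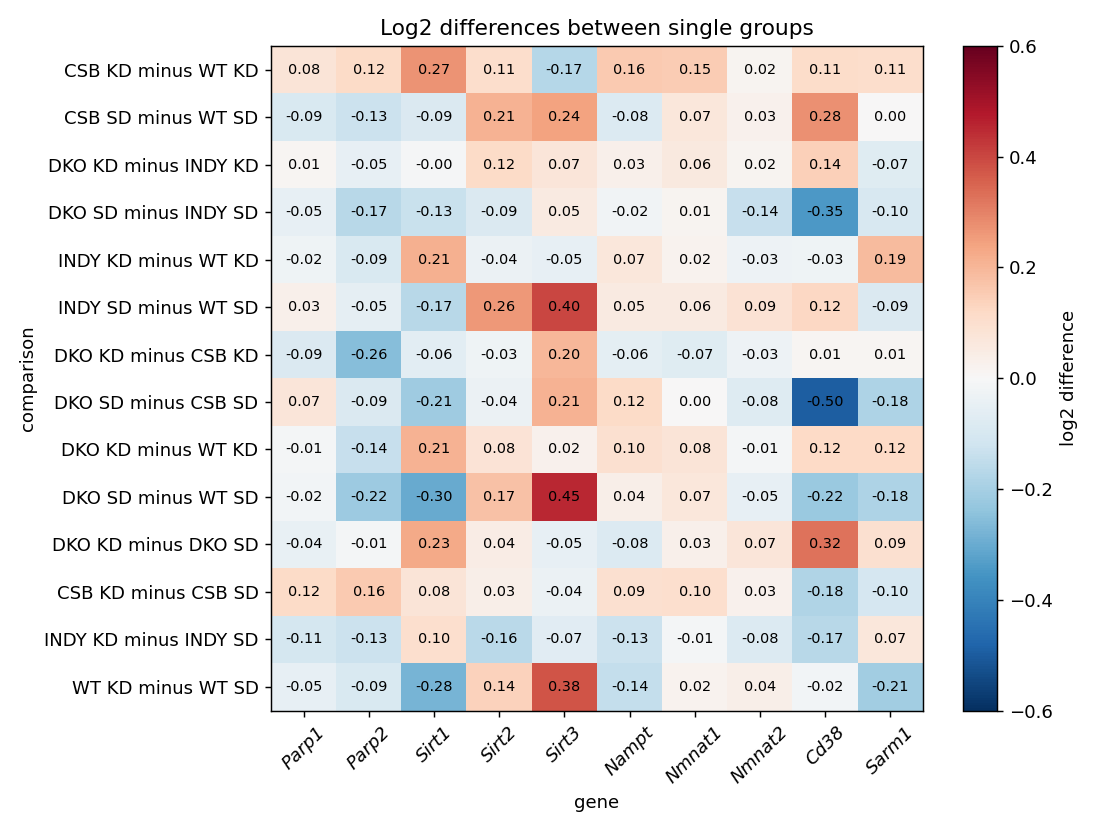
Log2 difference of each gene (columns) in 14 comparisons of single groups (rows), with the first-named group minus the second. The rows minus WT SD give Sirt3 0.24 to 0.45, and the lowest value is -0.50 for Cd38 in DKO SD minus CSB SD.

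Sirt3 came nearest to a call. It had values of 827, 791, 810 and 844 in DKO SD, against 629, 639, 546 and 581 in WT SD. Every DKO SD library lay above every WT SD library, and the difference was 0.45 (SE 0.15, 95% interval 0.15 to 0.75, limma adjusted p = 0.054). INDY SD libraries had 691 to 878 with a median of 813, also without overlap with WT SD, a difference of 0.40 (SE 0.13, limma adjusted p = 0.319). WT KD libraries had 684, 660, 872 and 927, against the same WT SD values. All 4 lay above WT SD, a difference of 0.38 (SE 0.15, limma adjusted p = 0.303), and without the doubted WT KD 25 it was 0.32 (limma adjusted p = 0.672). CSB SD libraries had 622 to 845 with a median of 704, overlapping WT SD, with a difference of 0.24 (SE 0.13, limma adjusted p = 0.612). These 4 differences rest on the same 4 WT SD libraries, which had the lowest mean of the 8 groups. On KD the CSB libraries had 570 to 946 and the INDY libraries 523 to 981, each spanning the whole WT KD range.

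Other measures also differed between these groups. The length balance is the mean log2 level of the 4036 longest tested protein-coding genes (exonic length of at least 6724 bases) minus that of the 4036 shortest (at most 2769.5 bases). It was 2.60 to 2.71 in DKO SD and 2.57 to 2.84 in INDY SD, against 2.85 to 2.97 in WT SD. With the length balance as a covariate the Sirt3 difference of DKO SD against WT SD was 0.19 (limma adjusted p = 0.57), and with libraries rescaled to equal sums it was 0.25 (limma adjusted p = 0.137), while the median of all genes then shifted by -0.196. Of 51 alternative settings 4 called Sirt3 in this comparison (a fit of only these groups, and fits without CSB KD 19, INDY KD 20 or INDY KD 22), and the adjusted p ran from 0.0299 to 0.57. A microglia list (12 of 12 tested, none at 0) had a mean log2 level of 8.80 to 9.28 in DKO SD, against 7.88 to 8.28 in WT SD, and its part in the result was not tested. In cerebellar bulk RNA, fewer cells of a type and less RNA per cell cannot be told apart. Sirt3 shares 418 exonic bases with Ric8a and 342 with Psmd13, both on the opposite strand and both expressed (mean values of 895 and 1117), and no source used here says that strand was kept in counting, so the Sirt3 values are uncertain.

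The other sirtuins gave no call. Sirt2 had 1582 to 1816 in INDY SD with a median of 1706, against 1598, 1571, 1209 and 1334 in WT SD. The groups overlapped, and the difference was 0.26 (SE 0.11, limma adjusted p = 0.327). Sirt1 had 519 to 724 with a median of 577 in DKO SD, against 703 to 765 with a median of 733 in WT SD. The ranges overlapped, and the difference was -0.30 (SE 0.15, limma adjusted p = 0.168). With equal sums the Sirt1 value was -0.50 (limma adjusted p = 0.053). The lowest Sirt1 value of all libraries, 483, was in WT KD 25 and the highest, 977, in INDY KD 20, the library with the lowest Sirt3 value of 523.

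Among the polymerases, Parp1 group means ran from 10.46 to 10.58 on the log2 scale and its values from 1242 to 1971. Parp2 values ran from 219 to 472, with its lowest group mean in DKO KD and its highest in CSB KD. DKO KD libraries had 245 to 374 with a median of 289, against 313 to 434 with a median of 373 in CSB KD. The groups overlapped and the difference was -0.26 (SE 0.18, limma adjusted p = 1). No test of Parp1 or Parp2 had an unadjusted p under 0.05 in the 20 comparisons.

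The synthesis enzymes had the 3 lowest ratios of highest to lowest library. Nampt had its highest group mean, 1957, in INDY SD and its lowest, 1714, in WT KD, and the highest and lowest single libraries were DKO SD 36 with 2145 and WT KD 28 with 1467. Nmnat1 was highest on average in CSB KD (200) and lowest in WT SD (177). Nmnat2 had its lowest group mean, 5505, in DKO SD and its highest, 6027, in INDY SD. The DKO SD mean included DKO SD 1 at 4490, the lowest of the 40, and the DKO SD minus INDY SD difference was -0.14 (limma adjusted p = 0.782) with that library and -0.04 (limma adjusted p = 0.968) without it.

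Cd38 and Sarm1 cleave NAD. Cd38 had 179, 577, 428 and 397 in DKO SD, against 393 to 603 with a median of 541 in CSB SD. The low value is that of DKO SD 1, the lowest of all 40 libraries, and the other 3 overlapped CSB SD. The difference was -0.50 (SE 0.21, limma adjusted p = 0.313), and without DKO SD 1 it was -0.16 (SE 0.19, limma adjusted p = 0.777). Without all libraries of high forebrain level it was -0.10 (limma adjusted p = 0.873). Sarm1 had 338 to 564 with a median of 460 in INDY KD, against 376, 404, 392 and 433 in WT KD. On SD it had 408 to 489 with a median of 426 in INDY, against 503, 439, 476 and 437 in WT. INDY and WT overlapped on both diets, with an INDY minus WT difference of 0.19 on KD and -0.09 on SD. Between DKO and CSB libraries, which also overlapped on both diets, the difference was 0.01 on KD and -0.18 on SD. The test of the interaction averages over these genotype pairs, and there the difference on KD exceeded that on SD by 0.24 (SE 0.10, limma adjusted p = 0.25).

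The wider pathway gave no call in the 3 averaged effects either. Of 51 genes in 6 lists around the members, 48 were tested (Ido1, Acmsd and Nnmt were too low), and 0 of 48 were called in each of the 3 averaged effects with limma. Unadjusted p under 0.05 was met by 8 of 48, or 16.7%, for the CSB genotype against 18.8% of all genes. It was met by 0 of 48 for INDY against 9.38%, and by 4 of 48, or 8.33%, for KD against 3.16%. The share for the CSB genotype was uneven. It held 4 of 8 genes of ADP-ribose removal and PARP partners (lowest limma adjusted p = 0.123). The rest were 3 of 14 other ADP-ribosyltransferases and 1 of 12 genes of other NAD synthesis. Lists were not tested as sets. The median log2 difference of the 48 genes was 0.04 for CSB, 0.01 for INDY and -0.01 for KD, against 0.01 over all genes in each. For the CSB genotype, the median was 0.06 in 14 other ADP-ribosyltransferases and 0.09 in 8 genes of ADP-ribose removal and PARP partners. It was -0.03 in 4 other sirtuins, 0.11 in 12 tested genes of other NAD synthesis and 0.05 in 5 tested genes of other NAD breakdown. In 5 genes of NAD phosphorylation, transhydrogenation and transport it was -0.01. The list of other NAD synthesis included genes near the floor: Kynu, Nmrk2, Haao and Kmo had median values of 3.83, 8.81, 8.95 and 9.43. The highest gene of each list per kb was Tnks2, a tankyrase that attaches ADP-ribose (459 per kb), Adprh, which removes ADP-ribose from arginine (322), Sirt5, a mitochondrial desuccinylase (163), Nmrk1, which phosphorylates nicotinamide riboside (63.7), Pnp, which splits purine nucleosides (101), and Nadk2, a mitochondrial NAD kinase (350). Of these, Tnks2 had -0.10 (SE 0.03, limma adjusted p = 0.101) and Adprh 0.11 (SE 0.04, limma adjusted p = 0.133) for the CSB genotype. Parp3, an ADP-ribosyltransferase of DNA break repair chosen after its value was seen, had the lowest adjusted p of the lists in the averaged effects, with 0.31 (SE 0.10, limma adjusted p = 0.0978).

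In the comparisons of single groups and the interactions, pathway genes were called in DKO SD against WT SD alone, 4 of 48 or 8.33%, where 5.92% of all genes were called. They are named because they were called, after their values were seen, and this is the comparison whose count of called genes turned on single libraries. Adprh, which removes ADP-ribose from arginine, was higher, and Parp4, an ADP-ribosyltransferase of vault particles, Qprt, which makes nicotinic acid mononucleotide from quinolinate, and Aox1, an aldehyde oxidase that also oxidises methylated nicotinamide, were lower. Adprh had 1004, 1029, 956 and 1012 in DKO SD, against 815, 820, 763 and 875 in WT SD. The groups did not overlap, and the difference was 0.29 (SE 0.09, limma adjusted p = 0.044). Parp4 had 181, 340, 238 and 296 in DKO SD, against 352, 368, 522 and 432 in WT SD. The groups did not overlap, DKO SD 1 was the lowest, and the difference was -0.69 (SE 0.21, limma adjusted p = 0.0471). Qprt had 11.4, 45.2, 34.8 and 33.7 in DKO SD, against 51.1, 59.7, 57.1 and 62.2 in WT SD. The groups did not overlap, DKO SD 1 was again the lowest, and the difference was -1.01 (SE 0.29, limma adjusted p = 0.0424). Aox1 had 299, 220, 231 and 150 in DKO SD, against 289, 304, 295 and 333 in WT SD. Here DKO SD 1 reached into the WT SD range, and the difference was -0.48 (SE 0.13, limma adjusted p = 0.0406). None of the 4 calls held when any 1 of the WT SD libraries or DKO SD 35 was left out, in a fit of only these groups, with the forebrain level or the length balance as a covariate, or with no filter on low values. Without DKO SD 1 the call also ended for Adprh (0.29, limma adjusted p = 0.0748), Parp4 (-0.52, limma adjusted p = 0.122) and Qprt (-0.60, limma adjusted p = 0.132). Without DKO SD 34 it ended for Adprh (limma adjusted p = 0.0605), and without DKO SD 36 for Aox1 (-0.30, limma adjusted p = 0.105). With equal sums Adprh had 0.09 (limma adjusted p = 0.414). Without the libraries of high forebrain level Parp4 had -0.38 (limma adjusted p = 0.223) and Qprt -0.54 (limma adjusted p = 0.182). Of the 51 alternatives, 38 called Adprh, 26 Parp4, 39 Qprt and 40 Aox1, and all 4 kept their direction in all 51. Parp4, which lay nearest the threshold, also lost its call without any 1 of 12 libraries of other groups, with adjusted p of 0.0501 to 0.0529.

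Across the 40 libraries, some members were related to the levels of cell type markers. Sirt2 increased with the oligodendrocyte list (10 of 10 tested, none at 0, mean log2 level 11.5 to 13.2): Pearson's r was 0.819 and Spearman's rho 0.769 (permutation p = 1e-05 each, adjusted 0.00035 and 0.000233, n = 40). Here r was 0.793 without the 2 farthest libraries and 0.814 within groups, over deviations from group means. Cd38 gave 0.575 with the same list (rho 0.716, permutation p = 5e-05, adjusted p = 0.0007), with 0.516 without the farthest 2 and 0.613 within groups. Sirt3 gave 0.663 with the microglia list (rho 0.624, permutation p = 1e-05, adjusted p = 0.00035), with 0.541 and 0.678 in those checks. Sirt1 gave -0.656 with the microglia list (rho -0.596, permutation p = 2e-05, adjusted p = 0.00035), with -0.591 and -0.728. With the length balance, Sirt3 gave -0.653 (rho -0.667, permutation p = 2e-05, adjusted p = 0.00035) and Sarm1 0.517 (rho 0.549, permutation p = 0.00066, adjusted p = 0.0066). Those were -0.559 and 0.356 without the 2 farthest libraries, and -0.655 and 0.523 within groups. The library with the highest Sirt1 value, INDY KD 20, had the lowest microglia level, 7.61, and also the highest granule cell level, 12.9. Relations with the Purkinje, granule cell, astrocyte, endothelial and red blood cell lists were not computed. Whether Sirt1, Sirt3 or other members followed the level of those cells was therefore not tested. In all, 70 relations of members with lists or the length balance were computed, and 18 had an adjusted p under 0.05. The microglia and oligodendrocyte lists gave 5 of 10 each, the length balance 3 of 10, choroid plexus 1 of 10 and liver 0 of 10. Mean log2 levels of the lists not described above were 5.02 to 10.3 for choroid plexus, 11.5 to 12.4 for astrocytes and Bergmann glia, 8.77 to 9.37 for endothelial cells, 9.08 to 11.6 for red blood cells and 1.28 to 9.75 for liver.

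The forebrain level splits the libraries, so its relations were computed in the 12 high libraries and the 28 others apart. In the 28 others 2 of 10 members had an adjusted p under 0.05. Sirt1, 1 of these 2, gave r = -0.527 (rho -0.570, permutation p = 0.0038, adjusted p = 0.0205), with -0.600 without the farthest 2 and -0.707 within groups. In the 12 high libraries Nmnat2 and Cd38 gave -0.907 each (rho -0.783 and -0.615, permutation p of r = 0.00176 and 0.00411, adjusted p = 0.0112 and 0.0205). For rho the adjusted p was 0.0218 for Nmnat2 and 0.121 for Cd38. Without INDY KD 21 and DKO SD 1, the farthest 2, these were -0.541 and -0.375, so they rest on those libraries.

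**Figure D5:**
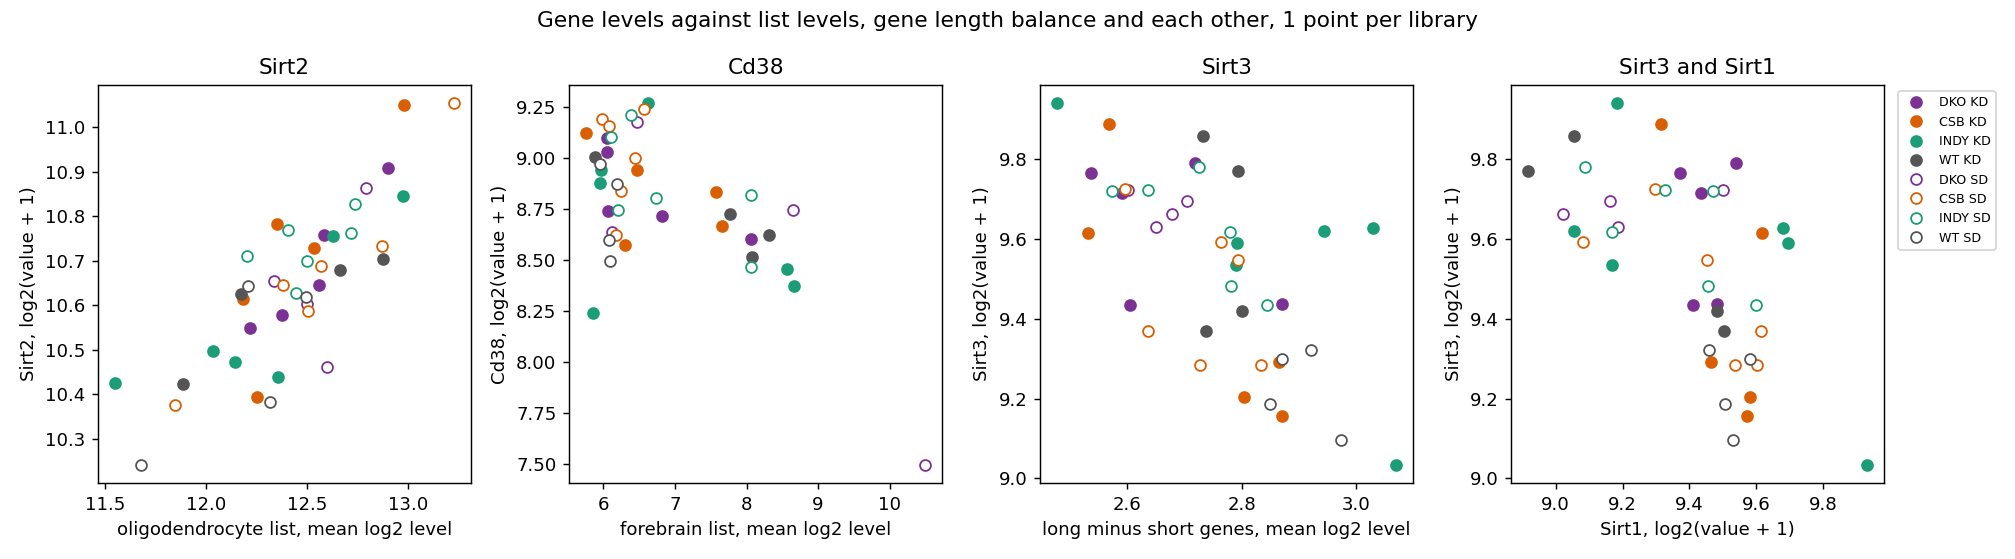
Log2(value + 1) of Sirt2 against the oligodendrocyte level, of Cd38 against the forebrain level, of Sirt3 against the length balance and of Sirt3 against Sirt1, 1 point per library, with groups by colour (filled KD, open SD). Sirt2 increases with the oligodendrocyte level (r = 0.819), Sirt3 decreases with the length balance (r = -0.653) and with Sirt1 (r = -0.615), and DKO SD 1 stands alone at a forebrain level of 10.5.

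Between members, 45 pairs were computed and 4 had an adjusted p under 0.05. Sirt1 and Sirt3 were inverse, with r = -0.615 (rho -0.599, permutation p = 4e-05, adjusted p = 0.0009), -0.538 without the farthest 2 libraries and -0.590 within groups. Sirt2 and Cd38 were aligned, with r = 0.593 (rho 0.634, permutation p = 4e-05, adjusted p = 0.0009), 0.559 and 0.621. Sirt3 and Sarm1 had r = -0.538 (rho -0.501, permutation p = 0.00031, adjusted p = 0.00465), -0.453 and -0.527. Parp2 and Sirt1 had r = 0.482 (rho 0.471, permutation p = 0.00167, adjusted p = 0.0188), 0.436 and 0.512.

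The genes whose log2 levels were most like each member over the 40 libraries were ranked by Pearson's r among tested protein-coding genes with a mean value of at least 50, as a description. The closest matches were Guk1 for Sirt3 (0.92), Mbp, a myelin protein gene also in the oligodendrocyte list, and Plekhb1 for Sirt2 (0.90 and 0.89), Syt9 and Jmjd1c for Sirt1 (0.89 and 0.87), and Minar1 and Gjd2 for Cd38 (0.88 and 0.87). Nampt matched Emc7 and Klhl9 (0.82 and 0.80), Nmnat2 matched Chgb and Rnf182 (0.81 and 0.76), and Parp1 matched Slc25a22 and Crmp1 (0.75 and 0.74). Sarm1 matched Acin1 and Bmp1 (0.74 each), Parp2 matched Dhx15 and Grb7 (0.69 and 0.68), and Nmnat1 matched Brf2 and Anapc16 (0.63 and 0.62).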

How the data were processed

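RNA of 40 mouse cerebella libraries was extracted with trizol and chloroform and depleted of ribosomal RNA, per the labels' protocols. The authors deposited 1 table of signal values, that is, estimated reads for each gene after their own normalisation. Bowtie2, Salmon, DESeq2 and the build mm9 are named in the submitters' processing notes, with no versions or roles. The values are not whole and sum to 23736702 to 32247186 per library after normalisation, so depth is unknown and no counting interval was computed. No deposited column of other samples was set aside (0 columns).

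Gene names, positions and exonic lengths were taken from GENCODE M21 (GRCm38), so they belong to that annotation and not to the alignments. With the version included 53444 of the 54331 IDs were found there, and 54097 when it was dropped. A gene was tested if 4 or more libraries reached a value of 10, which kept 21367, on log2(value + 1), a scale that understates changes of low genes, with limma 3.58.1 in R 4.3.3, with an intensity trend, robust variances and 1 mean per group. Tests were two-sided, with p adjusted after Benjamini and Hochberg over all tested genes and a threshold of 0.05. Averages weight groups equally. Permutation tests of correlations were two-sided with 100000 resamples. Similar gene sequences were sought with minimap2 2.31-r1302, and Python 3.11.15 with matplotlib 3.10.9 drew the figures. Simulated data with known changes were used to check the fit.

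The members, lists and tests were chosen with earlier results of these data known. All 10 members were named in every comparison. Of the pathway lists, genes called in the averaged effects (there were none) and the highest gene per kb of each list were to be named, and the 4 genes called in DKO SD against WT SD were added after their values were seen, and for each member the 2 genes with the highest r, except a gene that is not reported here. Marker lists also covered choroid plexus, astrocytes and Bergmann glia, endothelial cells, liver and red blood cells. Alternatives were other pseudocounts (0.5 and 5), no filter, other scalings, no intensity trend, only the groups compared, forebrain and liver covariates, dropping the high-forebrain libraries and dropping single libraries. The length balance covariate was chosen after seeing the data.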

Additional observations from a re-analysis of the deposited data

Results flagged for a closer look

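Dixon's ratio was used to look for a library far from its group, over 80 combinations of gene and group. Chance alone gives such a flag in about 1 of 20 combinations, and 5 were found. Parp1 had 1971 in INDY SD 14, above the other 5 INDY SD libraries at 1404 to 1507. Parp2 had 279.6 in WT SD 40, below the other 3 WT SD libraries at 380.3 to 402.3. Nampt had 1488 in DKO KD 23, below the other 4 DKO KD libraries at 1859 to 2007. Nampt also had 1766 in CSB KD 18, below the other 4 CSB KD libraries at 1919 to 1948. Nmnat2 had 5214 in DKO KD 2, below the other 4 DKO KD libraries at 5800 to 6026.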

How the results depend on the processing

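None of the 10 members was called in the 3 averaged effects under any of the 50 alternatives run for them, and a fit of only the groups compared was run for the comparisons of single groups. Over the 20 comparisons, 1010 of 1014 recounts of called members gave 0, and the other 4 gave 1, each time Sirt3 in DKO SD against WT SD. These were a fit of only the groups compared (limma adjusted p = 0.0386) and fits without CSB KD 19 (0.0441), INDY KD 20 (0.0299) or INDY KD 22 (0.0385), so this count ran from 0 to 1 when single libraries were left out. Of 1500 recomputed averaged differences of members 111 changed sign, all of them at most 0.104 in size, and none was called (lowest adjusted p 0.247). With equal sums the values that changed sign were -0.031 for Sirt1 and -0.021 for Nampt (CSB), -0.020 for Sirt2, -0.016 for Nampt and -0.059 for Nmnat1 (INDY), and -0.017 for Sirt1, -0.037 for Sirt2, -0.014 for Nmnat1 and -0.036 for Nmnat2 (KD). With the forebrain covariate they were 0.0033 for Nmnat2 and 0.0016 for Sarm1 (INDY) and 0.022 for Cd38 (KD). With forebrain and liver covariates they were 0.012 for Sarm1 (CSB), 0.0033 for Nmnat2 and 0.040 for Sarm1 (INDY), and 0.026 for Cd38 (KD). With the length balance covariate they were 0.046 for Parp1, -0.078 for Sirt3, -0.033 for Nampt, -0.049 for Cd38 and 0.059 for Sarm1 (CSB), and 0.027 for Parp1, -0.020 for Nmnat1 and 0.019 for Sarm1 (INDY). Without the libraries of high forebrain level they were 0.057 for Parp1, -0.0085 for Sirt3 and 0.040 for Nmnat2 (CSB), 0.0086 for Parp1, 0.074 for Sirt1, -0.10 for Nmnat1 and 0.046 for Nmnat2 (INDY), and -0.027 for Sirt1, -0.041 for Nmnat2 and 0.011 for Sarm1 (KD). That setting leaves 1 WT KD library, whose spread is assumed from the other groups. With single libraries left out, the CSB difference ran from -0.031 to 0.0055 for Parp1, -0.016 to 0.035 for Sirt1, -0.030 to 0.0045 for Nmnat2 and -0.0092 to 0.13 for Cd38. The INDY difference ran from -0.020 to 0.012 for Parp1, -0.014 to 0.027 for Nmnat1, -0.023 to 0.012 for Nmnat2 and -0.032 to 0.0048 for Sarm1. The KD difference ran from -0.048 to 0.0037 for Parp2, -0.0080 to 0.033 for Sirt2, -0.0097 to 0.025 for Nmnat2 and -0.094 to 0.046 for Cd38. The cause was not tested.

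The count of all genes called for the CSB genotype, 170, was 767 without high-forebrain libraries, 58 with the length balance covariate, 276 without INDY SD 33, 959 without DKO KD 23 and 1379 without INDY KD 22, and lay between 120 and 1379 over single libraries left out. For INDY, 3, it was 5 with a pseudocount of 5, 1 without high-forebrain libraries and 2 to 6 without single libraries. For KD, 0, it was 6 without high-forebrain libraries and 0 to 2 without single libraries (2 without DKO KD 3). For DKO SD against WT SD, 1265, it was 10 with the forebrain covariate, 6 with forebrain and liver covariates, 5 with the length balance covariate, 69 with no filter, 3047 with equal sums, 694 in a fit of only the groups compared and 12 to 2669 without single libraries, and the 4 pathway genes called there lost their calls in 11 to 25 of 51 alternatives. Equal sums shifted the median of all genes by -0.196 in DKO SD against WT SD, -0.152 in WT KD against WT SD, -0.131 in DKO SD against CSB SD, -0.118 in INDY SD against WT SD and 0.127 in the INDY and diet interaction. No paired analysis was possible because the library numbers in the labels are not shared between groups. Depth is unknown, and 4 to 6 libraries per group limit single-group comparisons.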

Other observations

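Nnt, the mitochondrial transhydrogenase that links NADH and NADPH, was chosen after its values were seen. It stands under 2 gene IDs in the table, and the ID used in the pathway lists varied from 30.1 to 423 between libraries. The sum of both IDs ran from 345 to 1111, and the first ID held 8.38% to 53.1% of it, so reads split between the IDs are uncertain.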
